A study of Homo sapiens with 39 samples.

Results

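The genes described here are the matrix metalloproteases (MMPs), the ADAMTS proteases and their tissue inhibitors (TIMPs). They were chosen by name alone: every protein-coding gene of the deposited gene table called MMP plus a number (with or without A or B), ADAMTS plus a number, or TIMP plus a number. This gave 46 genes, 23 MMP, 19 ADAMTS and 4 TIMP, of 19966 protein-coding genes and 60671 identifiers in the table.

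RNA abundance was measured in 39 libraries made from a pair of established cell lines grown from human melanomas, A375 and WM115. A375 was sampled as wild type (WT, 4 libraries), as R1 deletion clones 1.1 (3 libraries) and 1.2 (4 libraries), and as R4 deletion clones 4.1 (4 libraries) and 4.2 (3 libraries). WM115 was sampled as WT (4 libraries), as R1 clones 1.1 (5 libraries) and 1.2 (3 libraries), as R4 clones 4.1 (3 libraries) and 4.2 (3 libraries), and as clone 1.3 (3 libraries), whose title names R1 and whose genotype label names R4. The deleted regions are described as enhancer regions of SOX10, the gene of a transcription factor of neural crest cells and melanocytes. No drug treatment, dose or time point is given for any group. Each clone is a single clone, its libraries repeat that clone, and nothing in the labels says that they came from separate cultures. The p-values below therefore measure the spread between these libraries, which may be technical, and a clone that differs from WT is not shown to differ because of its deletion.

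MMPs are zinc-dependent proteases that are made as inactive precursors and cleave collagens, other matrix proteins and cell surface proteins. Most are secreted, while the membrane-type MMPs stay on the cell surface, where MMP14 activates pro-MMP2 with TIMP2 as a bridge between them. TIMPs bind the active site of MMPs, and TIMP3, which is held in the matrix, also inhibits several ADAM and ADAMTS proteases. ADAMTS proteases are secreted, carry thrombospondin repeats, and cleave proteoglycans such as aggrecan and versican, the propeptides of collagen, or single plasma and cartilage proteins. In melanoma the MMPs and TIMPs have been studied mainly in invasion through the basement membrane and dermis.

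The promoter stretches of 3 genes are shown because ADAMTS12 was called higher and MMP8 lower in clone 1.2 of both lines, as described further on, and because MMP10 has the same 7 letters as ADAMTS12. Each is the 250 bases before the RefSeq start on the minus strand of GRCh38.p14, written 5′ to 3′. Capitals mark a match to TGANTCA, the binding motif of AP-1 factors, which reads the same on both strands and was searched on both. The match begins 84 bases before the start in ADAMTS12 (chr5:33891991-33892240) and 67 bases before it in MMP10 (chr11:102780629-102780878). These letters are not in the MMP8 window (chr11:102724955-102725204). GENCODE 29 puts the outermost start of ADAMTS12 and of MMP8 further upstream than RefSeq does.
ADAMTS12: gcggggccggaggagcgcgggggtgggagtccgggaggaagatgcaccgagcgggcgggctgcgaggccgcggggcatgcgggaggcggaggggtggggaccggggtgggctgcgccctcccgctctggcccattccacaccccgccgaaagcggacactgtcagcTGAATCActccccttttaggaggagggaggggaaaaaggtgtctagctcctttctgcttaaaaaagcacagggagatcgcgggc
MMP10: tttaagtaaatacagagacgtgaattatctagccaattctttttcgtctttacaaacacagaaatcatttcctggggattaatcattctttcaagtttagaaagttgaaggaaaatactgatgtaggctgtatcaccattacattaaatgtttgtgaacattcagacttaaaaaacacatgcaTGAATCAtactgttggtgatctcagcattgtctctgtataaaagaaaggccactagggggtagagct
MMP8: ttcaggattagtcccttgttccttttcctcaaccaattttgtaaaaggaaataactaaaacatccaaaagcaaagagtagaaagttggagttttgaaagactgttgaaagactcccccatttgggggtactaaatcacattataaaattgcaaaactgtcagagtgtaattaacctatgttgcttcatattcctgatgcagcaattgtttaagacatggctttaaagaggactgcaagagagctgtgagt
RefSeq promoter windows, from 250 bases before to 50 bases after a start, were found for 27 of the 46 genes. The motif was in the windows of 4 of these 27 (14.8%), which are ADAMTS12, MMP7, MMP10 and MMP20, beside 7.71% of all 35116 windows. The first share counts genes and the second counts windows, of which a gene can have several, so they are not of the same unit. Of the 4 genes, MMP7 and MMP20 stayed under 1 TPM in every library. A match is a description of the letters and was not tested as a binding site.

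The cells were checked against markers of their labelled type before the genes were compared. SOX10 was between 380.7 and 876 TPM (the length-corrected share of a library's transcripts that a gene makes up, on the usual scale) in A375 and between 9.56 and 553 TPM in WM115. Its group medians were 697 TPM in A375 WT against 491, 446, 760.1 and 541 TPM in clones 1.1, 1.2, 4.1 and 4.2, and 513 TPM in WM115 WT against 405, 272, 390 and 438 TPM in the same clones and 465 TPM in clone 1.3. The pigment genes MLANA, TYR and DCT were under 1 TPM in all A375 libraries, and PMEL reached 2.54 TPM. MITF and S100B were at 7.23 to 26.7 and 12.7 to 93.2 TPM there. In WM115 these markers ranged widely. MITF was at 6.16 to 202 TPM, S100B at 4.87 to 779.5 TPM and PMEL at 1.02 to 142 TPM. DCT, TYR and MLANA ran from 0 to 1685, 91.6 and 54.4 TPM. Several markers of other cell types were low: PTPRC reached 0.483 TPM, CD3E 0.214 TPM, COL1A1 4.55 TPM, COL3A1 3.67 TPM, KRT5 0.731 TPM, KRT1 0.034 TPM and DSG3 0.04 TPM. The fibroblast markers DCN and PDGFRA reached 4.34 and 3.34 TPM, and the endothelial markers CDH5 and VWF 4.04 and 0.486 TPM. PDGFRB, a fibroblast marker, was at 2.92 to 10.2 TPM in A375 and 0.546 to 11.4 TPM in WM115. KRT14 reached 30.4 TPM in A375, LUM 26.4 TPM and PECAM1 12.0 TPM in WM115, and CD68, a lysosomal protein that is not restricted to leukocytes, was present in all libraries at up to 757 TPM.

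Several libraries stood apart. Across 16997 genes, library 2 of WM115 clone 1.3 was nearest to clone 1.2 (r = 0.621 of its deviations, against -0.09 with its own group), and library 3 of clone 1.3 was nearest to WT (r = 0.601, against 0.057). Library 3 of WM115 clone 1.2 had the lowest SOX10 level of all, 9.56 TPM, against 272 and 279 TPM in the other two libraries of that clone. In WM115 19 of 21 libraries were nearest to their own group, and in A375 9 of 18. A375 WT libraries 2 and 3 were nearest to clone 4.1 and library 4 to clone 4.2 (r = -0.232, 0.138 and -0.317 with WT). Every library of A375 clone 1.1 was also nearest to another group. All A375 clone comparisons rest on this WT group. Mitochondrial transcripts took 13.7% to 15.6% of TPM in WM115 WT and 4.71% to 14.4% in the WM115 clones other than 1.3, and cytosolic ribosomal protein genes took 12.3% to 13.8% and 16.5% to 18.9%. In A375 the mitochondrial share was 0.968% to 4.92% over all groups. For the alternatives below, libraries were set as high or low in this share, split at 2.5% in A375 and 7.5% in WM115. The mitochondrial share as a term means this high or low set, so differences in share within a set are not adjusted for. In WM115 every library of WT, clone 1.2 and clone 1.3 was in the high set. Read depth is unknown, because only TPM are given, and a gene at 0 is described as listed at 0.

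The 46 genes covered a wide range of levels. The 5 with the highest mean over all 39 libraries were TIMP3 (1096 TPM), TIMP1 (944 TPM), MMP14 (192.5 TPM), TIMP2 (189 TPM) and MMP2 (174 TPM). In every library 10 genes were at 1 TPM or more: 5 MMP, 2 ADAMTS and 3 TIMP. At the other end, 15 genes stayed under 1 TPM in every library, and 3 of them, ADAMTS19, MMP26 and MMP27, were listed at 0 in all 39. Several proteases best known from tumours and inflamed tissue were among the low ones, named here after their values were seen. The gelatinase MMP9 reached at most 0.656 TPM, the collagenase MMP13 0.329 TPM, matrilysin MMP7 0.687 TPM and macrophage elastase MMP12 0.193 TPM. The inhibitor TIMP4 was listed at 0 in 33 libraries and reached 0.081 TPM.

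**Figure D1:**
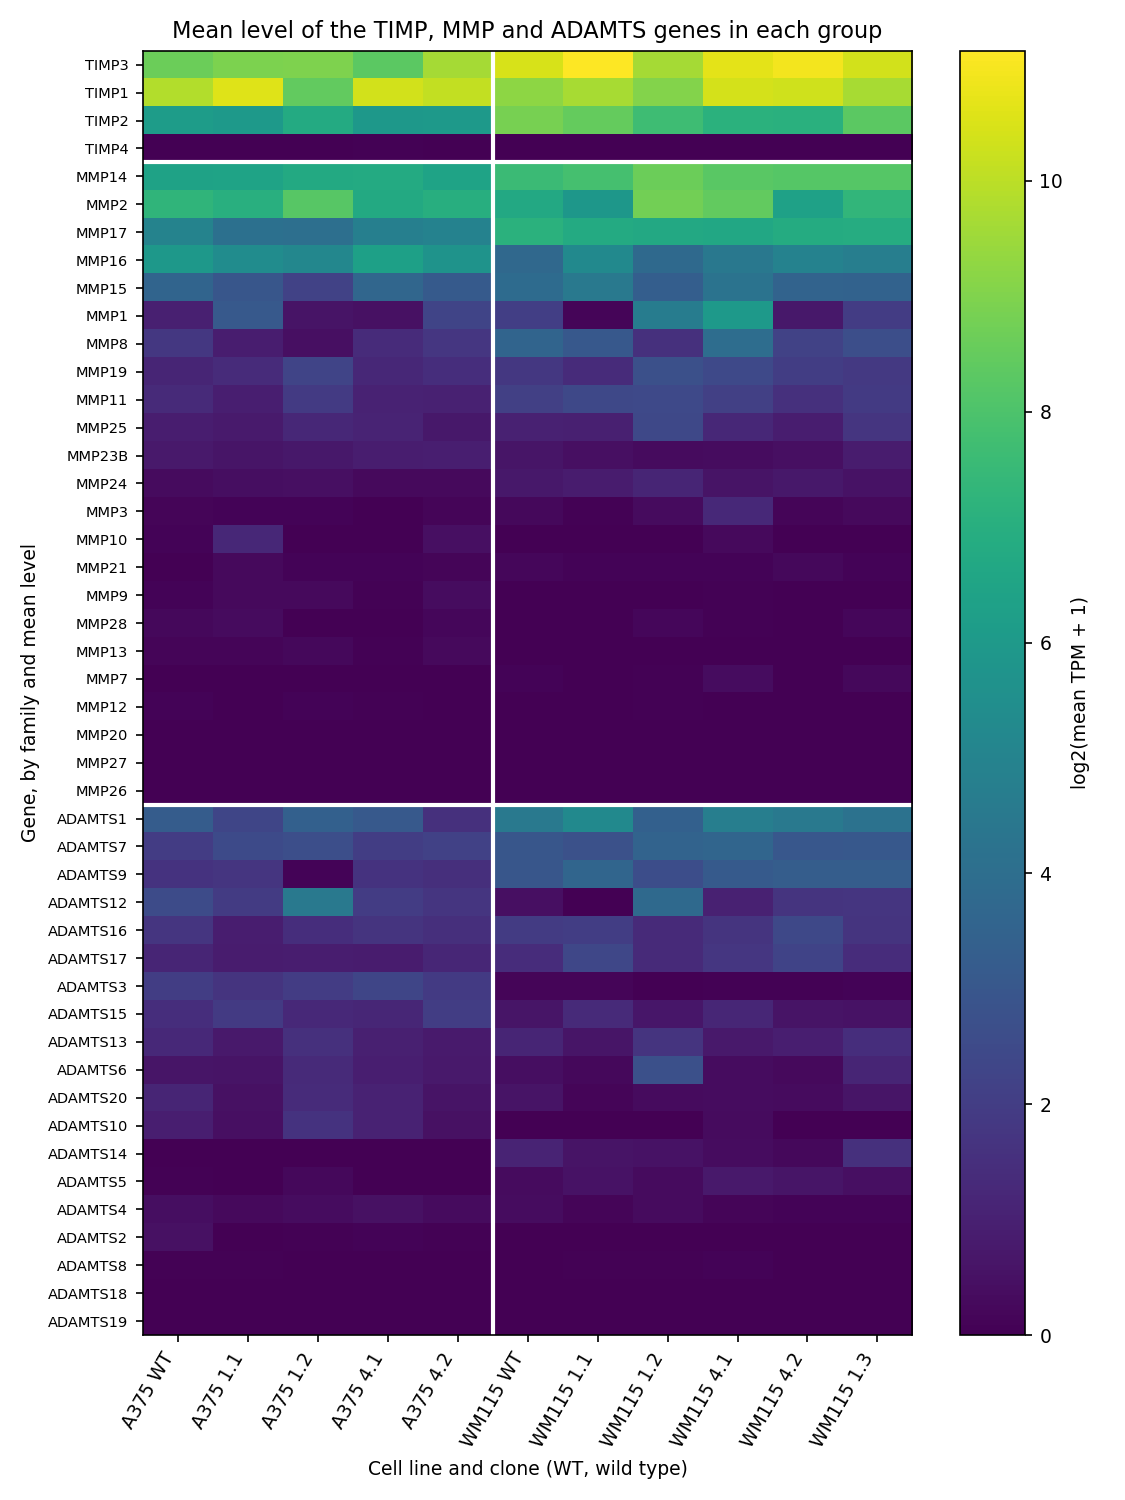
Mean level of the MMP, ADAMTS and TIMP genes in each line and clone, as log2(mean TPM + 1), with brighter cells for higher levels. TIMP3, TIMP1, MMP14, TIMP2 and MMP2 had the highest means over all 39 libraries, and 15 genes stayed under 1 TPM throughout.

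Of the inhibitors, TIMP1 and TIMP2 were each listed almost wholly under 1 transcript. TIMP1-201 made up a median of 95.8% of TIMP1 in A375 and 96.6% in WM115, and TIMP2-201 made up 95.8% and 97.0% of TIMP2. MMP2 was split between MMP2-201 (medians of 57.3% and 60.8%) and a second transcript (35.9% and 33.9%). For MMP14 the coding transcript MMP14-201 made up a median of 63.6% in A375 and 65.4% in WM115, and the rest was listed mainly under a processed transcript and a retained intron. TIMP1 lies inside SYN1, TIMP3 inside SYN3 and TIMP4 inside SYN2, each on the opposite strand, and MMP1, MMP3 and MMP10 overlap WTAPP1 on the opposite strand. Whether the counting used strand is not given in the sources used here.

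The WT cells of the lines differed widely in these genes. Of 28 genes tested, 12 were called between WM115 WT and A375 WT (limma, adjusted p under 0.05 and a log2 difference of at least 1 in size), 9 higher in WM115 and 3 lower. The share of all genes called in this comparison was 20.0%. The median log2 difference was 0.29 over the 28 genes and 0.02 over all genes tested. Genes of whole chromosomes also differed, with medians of 0.37 for chromosome 22 (TIMP3), 0.36 for chromosome 14 (MMP14), -0.28 for chromosome 8 (MMP16) and -0.43 for chromosome 4 (ADAMTS3). The lines come from different donors, and line and any batch of culture or library cannot be told apart.

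TIMP2 showed the largest difference between the lines, with 75.4, 76.5, 64.9 and 67.4 TPM in A375 WT and 503, 416, 312 and 611 TPM in WM115 WT. The groups did not overlap, and the log2 difference was 2.64 (SE 0.23, adjusted p = 1.97e-11). TIMP3 was at 447, 241, 360.3 and 553 TPM in A375 WT and at 1296, 1407, 1693 and 1286 TPM in WM115 WT, a log2 difference of 1.88 (SE 0.25, adjusted p = 1.75e-07). MMP14, the membrane-type collagenase, was at 86.0, 93.9, 91.6 and 67.4 TPM against 219, 221, 158.5 and 173 TPM, a log2 difference of 1.17 (SE 0.21, adjusted p = 2.92e-05). In both genes every WM115 WT library was above every A375 WT library. MMP8, known as the neutrophil collagenase, was also higher in WM115 (1.78, SE 0.41), as were the proteoglycan-cleaving ADAMTS1 (1.3, SE 0.37) and ADAMTS9 (1.37, SE 0.29). MMP16, another membrane-type MMP, went the other way, with 65.4, 67.5, 59.1 and 50.6 TPM in A375 WT and 13.8, 12.9, 16.9 and 6.07 TPM in WM115 WT (-2.27, SE 0.38, adjusted p = 9.80e-06). ADAMTS12, which cleaves the cartilage protein COMP, was at 3.15 to 5.53 TPM in A375 WT and at 0.2 to 0.501 TPM in WM115 WT (-2.04, SE 0.33).

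A further 4 calls between the lines fall outside the rule for named genes and were chosen after their values were seen. MMP17, a glycolipid-anchored MMP, was at 26.0 to 39.5 TPM in A375 WT and 126 to 144 TPM in WM115 WT (2.13, SE 0.21). ADAMTS3, which removes the amino-terminal propeptide of collagen, had a median of 2.92 TPM over the A375 libraries and 0.07 TPM over those of WM115, and its WT groups did not overlap (-1.87, SE 0.14). The calls of ADAMTS7 (1.01, SE 0.26) and ADAMTS14 (1.01, SE 0.26) sat at the minimum difference and were lost without WM115 WT library 1 (0.94 and 0.98) or 4 (0.96 and 0.76), that of ADAMTS7 also without A375 WT library 3 or 4 (0.91 and 0.87). Both were also lost under median-of-ratios scaling (0.96 and 0.98) and quantile normalization (0.84 and 0.93).

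Each clone was then compared with the WT of its line, to ask whether any of these genes differed in the clones. In A375, where 26 genes were tested, 6 were called in clone 1.2 (2 higher, 4 lower), against 4.01% of all genes, and 1 in clone 4.2 (lower), against 0.473% called in either direction and 0.365% called lower. None was called by limma in A375 clones 1.1 and 4.1, where 0.731% and 0.653% of all genes were called, and 9 and 1 of the 26 had an unadjusted p under 0.05. In WM115, where 24 genes were tested, 2 were called in clone 1.1 (1 higher, 1 lower) against 4.88% of all genes, and 9 in clone 1.2 (6 higher, 3 lower) against 7.61%. A further 4 were called in WM115 clone 4.1 (3 higher, 1 lower) against 7.57%, and 2 in clone 4.2 (1 higher, 1 lower) against 6.60%. None was called in clone 1.3, where 0.618% of all genes were called and 4 of the 24 had an unadjusted p under 0.05.

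In all, the 9 comparisons held 24 calls, 13 higher and 11 lower, of 14 genes: 8 MMP, 4 ADAMTS and 2 TIMP. Of these, 4 genes were called in both lines: ADAMTS1, ADAMTS12, MMP8 and TIMP1. ADAMTS12 was higher and MMP8 lower in clone 1.2 of both lines. ADAMTS1 was lower in different clones, A375 clone 4.2 and WM115 clone 1.2. TIMP1 went opposite ways, lower in A375 clone 1.2 and higher in WM115 clones 4.1 and 4.2. The share of all genes called in any clone, or in both lines, was not computed. The other 14 tested genes had log2 differences from -0.93 to 1.03 and no call. Clones of a line share its WT libraries, so a WT library that departs from the others moves every clone of that line. The median log2 difference over the tested genes ranged from -0.27 (A375 clone 1.1) to 0.28 (WM115 clone 4.1), while that over all genes ranged from -0.12 (WM115 clone 1.1) to 0.07 (A375 clone 1.2). Median-of-ratios scaling moved the median over all genes from -0.118 to -0.002 in WM115 clone 1.1 and from -0.104 to 0.008 in clone 4.1, and no call changed its direction under it. Log2 differences are on the log2(TPM + 1) scale, which understates the change of genes near or under 1 TPM.

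**Figure D2:**
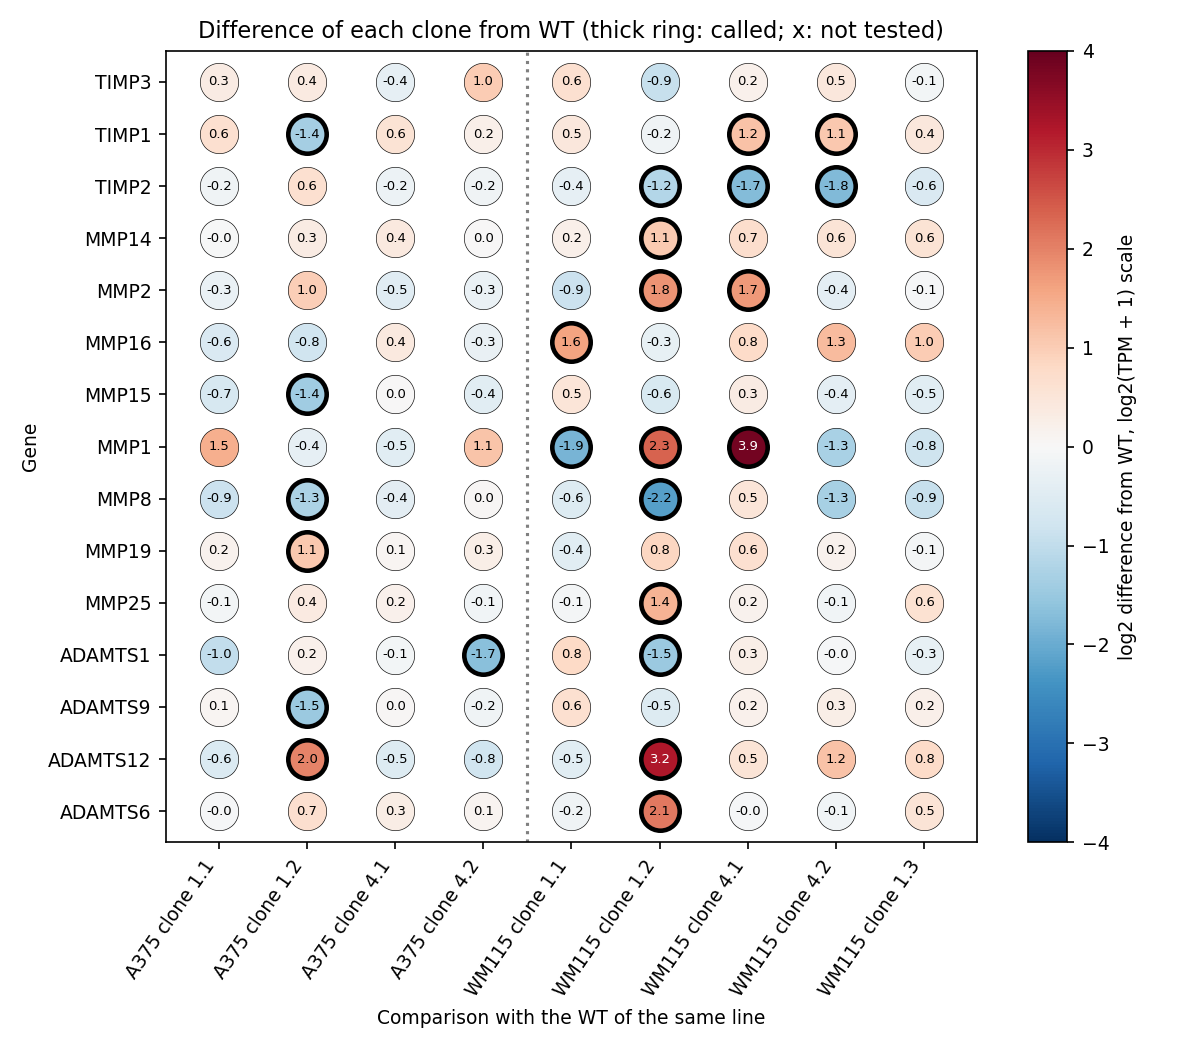
Log2 difference from the WT of the same line, on the log2(TPM + 1) scale, for 15 genes (rows) in 9 clones (columns), with a thick ring where the gene was called. The darkest points are MMP1 in WM115 clone 4.1 (3.86) and ADAMTS12 in WM115 clone 1.2 (3.22), and TIMP2 carries a ring in WM115 clones 1.2, 4.1 and 4.2.

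The inhibitors TIMP1 and TIMP2 moved in opposite directions in the R4 clones of WM115, where TIMP1 was higher and TIMP2 lower than in WT. TIMP1 (ENSG00000102265, chromosome X, 47582313 to 47586789, plus strand, GRCh38) was at 679.8, 653, 600.2 and 469 TPM in WM115 WT. It was at 1510.4, 1355 and 1189 TPM in clone 4.1 and at 1663, 1106 and 1079.6 TPM in clone 4.2. All 6 libraries of the R4 clones were above all 4 of WT. This was not particular to R4. Clones 1.1 (722 to 922 TPM) and 1.3 (706 to 897 TPM) also lay wholly above WT without a call, and clone 1.2 (443 to 629 TPM) overlapped it. Clone 1.1 fell short of the minimum difference (0.46, limma adjusted p = 0.0350). The log2 differences of clones 4.1 and 4.2 were 1.18 (SE 0.17, adjusted p = 0.000122) and 1.08 (SE 0.17, adjusted p = 0.000430). With the mitochondrial share (high or low) as a term they were 0.94 and 0.96, under the minimum of 1 but with adjusted p of 0.000886 and 0.000369. Clone 4.2 also fell to 0.96 without WT library 4 and to 0.88 without its own library 1. In the same clones the 4 keratinocyte markers, with KRT5 at 0, summed to 1.94 to 3.65 TPM (clone 4.1) and 1.355 to 2.56 TPM (clone 4.2) against 0.055 to 0.586 TPM in WT, nearly all of it KRT14, and the part of this shift in the TIMP differences was not tested.

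TIMP1 also stood out in A375, in the other direction. A375 WT had 818, 742, 1279 and 827 TPM, and clone 1.2 had 461, 365, 334 and 254 TPM, all under the lowest WT library. The log2 difference was -1.37 (SE 0.31, adjusted p = 0.0109), and it was -0.95 within the libraries of low mitochondrial share (adjusted p = 0.478). Clone 1.1, with the same region deleted, had 1816, 2042 and 716 TPM, a log2 difference of 0.63 from WT that did not pass the test (SE 0.34, adjusted p = 0.579). Clone 1.2 was lower than clone 1.1 by test (-1.998, SE 0.34, adjusted p = 0.000943). The libraries of A375 clones 1.1 and 4.2 were uneven, with 1 library of 716 TPM and 1 of 633 TPM beside others of 1345 TPM or more.

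TIMP2 (ENSG00000035862, chromosome 17, 78852977 to 78925387, minus strand) was lower in 3 WM115 clones. WM115 WT had 503, 416, 312 and 611 TPM, clone 4.1 had 141, 145 and 121 TPM, and clone 4.2 had 141, 106 and 152 TPM. Neither R4 clone overlapped WT. The log2 differences were -1.72 (SE 0.29, adjusted p = 0.000454) in clone 4.1 and -1.76 (SE 0.29, adjusted p = 0.000573) in clone 4.2, and no alternative tried ended either call. Clone 1.2, with 198.5, 270.3 and 146 TPM, was lower by 1.17 on the log2 scale (-1.17, SE 0.29, adjusted p = 0.00950), and this call was lost without its library 3 (-0.95, adjusted p = 0.0813). In A375 clone 1.2 the 4 libraries, 124, 103, 113 and 103 TPM, were all above the highest of WT, 76.5 TPM, with a log2 difference of 0.63 (SE 0.15, adjusted p = 0.0147), short of the minimum of 1.

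TIMP3 (ENSG00000100234, chromosome 22, 32801701 to 32863043, plus strand), on the chromosome that also carries SOX10, was called in no clone against WT. It was the most abundant of the 46 genes in WM115, at 1296, 1407, 1693 and 1286 TPM in WT. Clone 1.1 had 2136, 2414, 2889, 2158 and 1587 TPM (0.64, adjusted p = 0.0299) and clone 1.2 had 809, 1036 and 508 TPM (-0.91, adjusted p = 0.0107), both short of the minimum difference. The 2 R1 clones thus lay on either side of WT, and they differed from each other by -1.54 (SE 0.22, adjusted p = 5.13e-05). In clone 1.2 the median over the 400 tested genes of chromosome 22 was itself lower than WT (-0.45), and it was -0.35 against clone 1.1. In A375 clone 4.2 had 778, 879.6 and 699 TPM and clone 4.1 had 352, 190.1, 255 and 469 TPM, a log2 difference of 1.38 (SE 0.29, adjusted p = 0.0146) between clones of the same region, which was lost without library 3 of clone 4.1 or library 2 or 3 of clone 4.2 (adjusted p of 0.0520 to 0.0808).

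**Figure D3:**
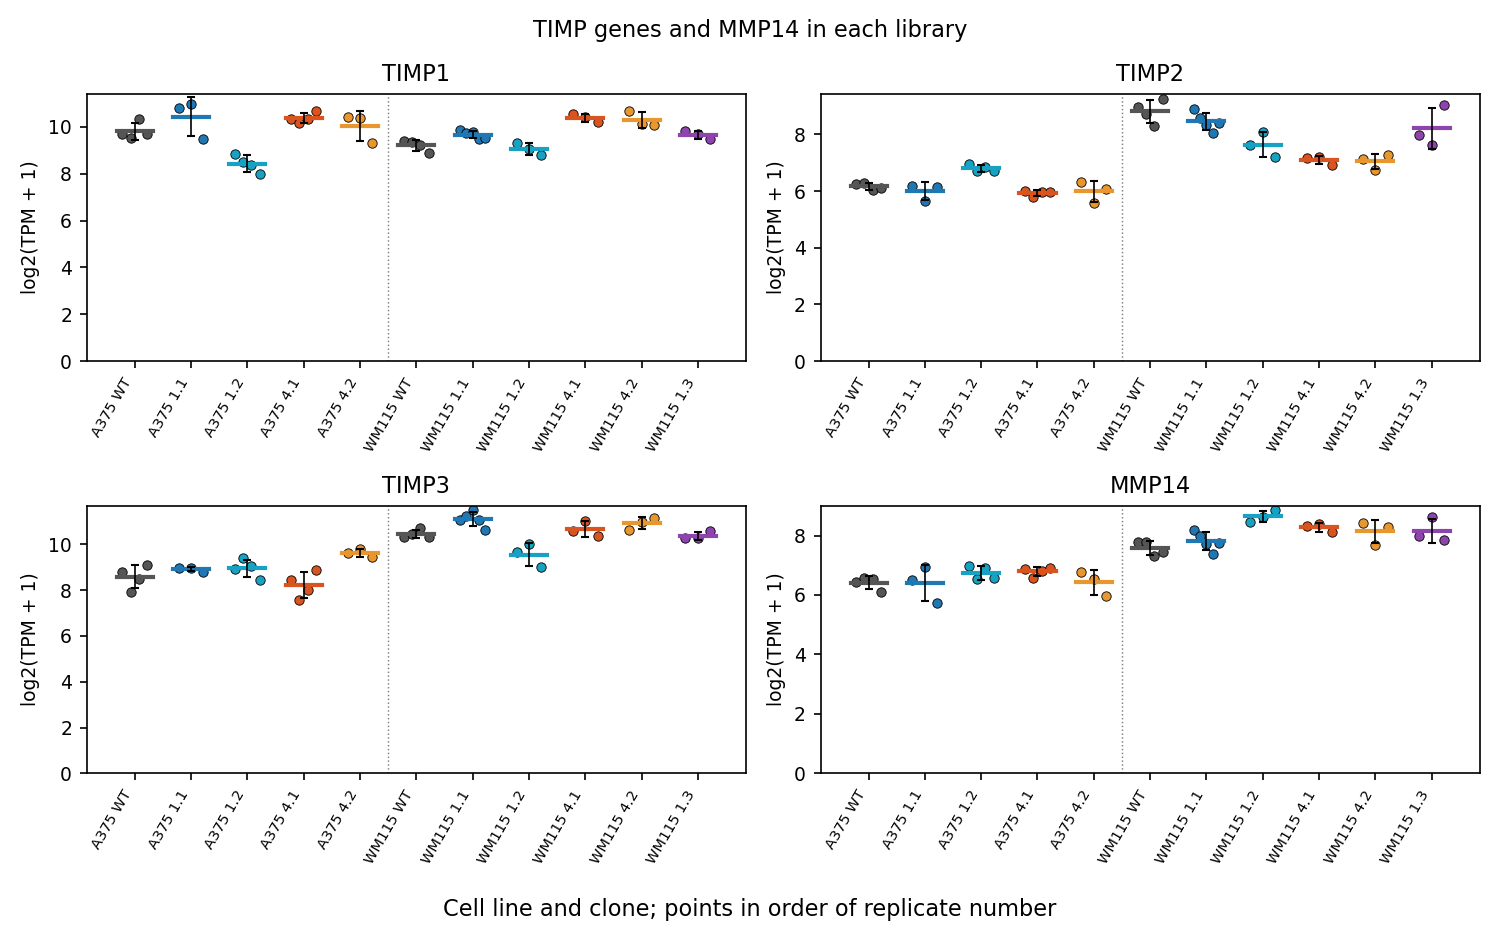
TIMP1, TIMP2, TIMP3 and MMP14 in every library, as log2(TPM + 1), with the mean as a line and 1 SD as a bar. In WM115 both R4 clones sit above WT for TIMP1 (1079.6 TPM or more against 679.8 TPM or less) and below it for TIMP2 (152 TPM or less against 312 TPM or more). Clones 1.1 and 1.3 also sit wholly above WT for TIMP1, and clone 1.2 wholly below it for TIMP2.

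Collagenases cut fibrillar collagen, and MMP1 (ENSG00000196611, chromosome 11, 102789920 to 102798160, minus strand), the interstitial collagenase, varied more between clones than any other called gene. WM115 WT had 2.18, 2.97, 4.88 and 2.65 TPM. Clone 4.1 had 63.5, 91.1 and 33.7 TPM and clone 1.2 had 37.0, 6.82 and 28.7 TPM, all above WT. Clone 1.1 had 0.183, 0.022, 0.234, 0.143 and 0.027 TPM, all below WT. The log2 differences were 3.86 (SE 0.59, adjusted p = 0.000200) in clone 4.1, 2.35 (SE 0.59, adjusted p = 0.0102) in clone 1.2 and -1.86 (SE 0.52, adjusted p = 0.0157) in clone 1.1. The call of clone 1.2 was lost without its library 3 (2.09, adjusted p = 0.0731), and that of clone 1.1 within the libraries of high mitochondrial share (-1.90, adjusted p = 0.182).

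The clones of a region did not match in MMP1. Clone 4.2 of WM115 had 0.708, 0.504 and 0.708 TPM, all below WT, where clone 4.1 was far above it. Clone 4.2 was lower than clone 4.1 by 5.17 on the log2 scale (-5.17, SE 0.63, adjusted p = 3.57e-05), and clone 1.2 was higher than clone 1.1 by 4.21 (SE 0.56, adjusted p = 3.02e-05). In clone 1.3, library 2 had 8.48 TPM and the other two had 0.213 and 0.059 TPM, and library 2 is the one whose profile was nearest to clone 1.2. In A375 MMP1 was called in no clone. Clone 4.2, at 1.90 to 7.62 TPM, still lay wholly above WT (0.534 to 1.555 TPM). Clone 1.1, at 1.24 to 19.2 TPM, overlapped WT, as did clones 1.2 and 4.1.

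MMP3 and MMP10, the stromelysins, lie beside MMP1 in the MMP cluster of chromosome 11 and did not pass the filter on low values. They are named here after their values were seen. MMP3 was at 2.12, 1.11 and 0.955 TPM in WM115 clone 4.1, the clone with the highest MMP1, and at 0.634 TPM or less in all other libraries. MMP10 reached 3.95 TPM in library 2 of A375 clone 1.1 and 0.977 TPM in library 2 of A375 clone 4.2, the libraries with the highest MMP1 of their groups, and stayed under 0.5 TPM in all others.

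MMP8 (ENSG00000118113, chromosome 11, 102711795 to 102727050, minus strand), in the same cluster, was called lower in clone 1.2 of both lines. WM115 WT had 13.3, 14.9, 5.30 and 9.90 TPM, and clone 1.2 had 3.74 and 2.09 TPM and 1 library listed at 0. The groups did not overlap, with a log2 difference of -2.19 (SE 0.47, adjusted p = 0.00463), or -1.55 without library 3 of the clone (adjusted p = 0.0470). A375 WT had 3.58, 0.556, 2.72 and 3.28 TPM and clone 1.2 had 0.252, 0.643, 0.267 and 0.257 TPM. Here the groups overlapped through WT library 2, and the call (-1.28, SE 0.33, adjusted p = 0.0223) was lost in 9 of 17 alternatives, among them those without WT library 1, 3 or 4 or without library 1, 3 or 4 of the clone (adjusted p of 0.0562 to 0.0765). In WM115 clone 4.1 MMP8 was at 12.5 to 16.6 TPM, against 2.43 to 5.19 TPM in clone 4.2 (-1.84, SE 0.50, adjusted p = 0.0337), a call lost without any one library of clone 4.1 or without library 2 or 3 of clone 4.2 (adjusted p of 0.0602 to 0.134). Clone 4.2 also lay wholly below WT, without a call. Some alternatives called it lower than WT, among them the fit of only the 2 groups (-1.34, adjusted p = 0.0352). Others were the mitochondrial share as a term (-1.48, adjusted p = 0.0414) and leaving out WT library 3 (-1.62, adjusted p = 0.0227).

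MMP2 (ENSG00000087245, chromosome 16, 55389700 to 55506691, plus strand), the gelatinase that cuts basement membrane collagen, was higher in 2 WM115 clones. WT had 120.0, 103, 75.8 and 123 TPM, clone 4.1 had 379, 327 and 332 TPM, and clone 1.2 had 167, 408 and 714 TPM. Both clones lay above WT in every library. The log2 differences were 1.73 (SE 0.54, adjusted p = 0.0274) and 1.81 (SE 0.54, adjusted p = 0.0242). Their adjusted p lay close to the threshold. The call of clone 4.1 was lost without any one of its own libraries (1.66 to 1.77) or without WT library 2 or 3 (1.72 and 1.58), with adjusted p of 0.0529 to 0.0855, and with the mitochondrial share as a term (1.54, adjusted p = 0.104), and that of clone 1.2 was lost without its library 2 or 3 or WT library 3 (1.73, 1.33 and 1.66).

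In the other clones of known region MMP2 overlapped WT. Clone 1.1 had 39.3 to 91.8 TPM and clone 4.2 had 61.3 to 106 TPM, and neither passed the test against WT. Clone 1.2 was higher than clone 1.1 by 2.66 (SE 0.52, adjusted p = 0.000797), and clone 4.2 was lower than clone 4.1 (-2.11, SE 0.58, adjusted p = 0.0349), the latter call being lost without any one library of clone 4.1 or without library 2 or 3 of clone 4.2 (adjusted p of 0.0736 to 0.133). Library 2 of clone 1.3 was again apart, with 362 TPM against 35.8 and 74.5 TPM. In A375 clone 1.2 MMP2 was at 187 to 413 TPM, against 88.7 to 269.9 TPM in WT, and the groups overlapped (0.98, SE 0.38, adjusted p = 0.134).

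**Figure D4:**
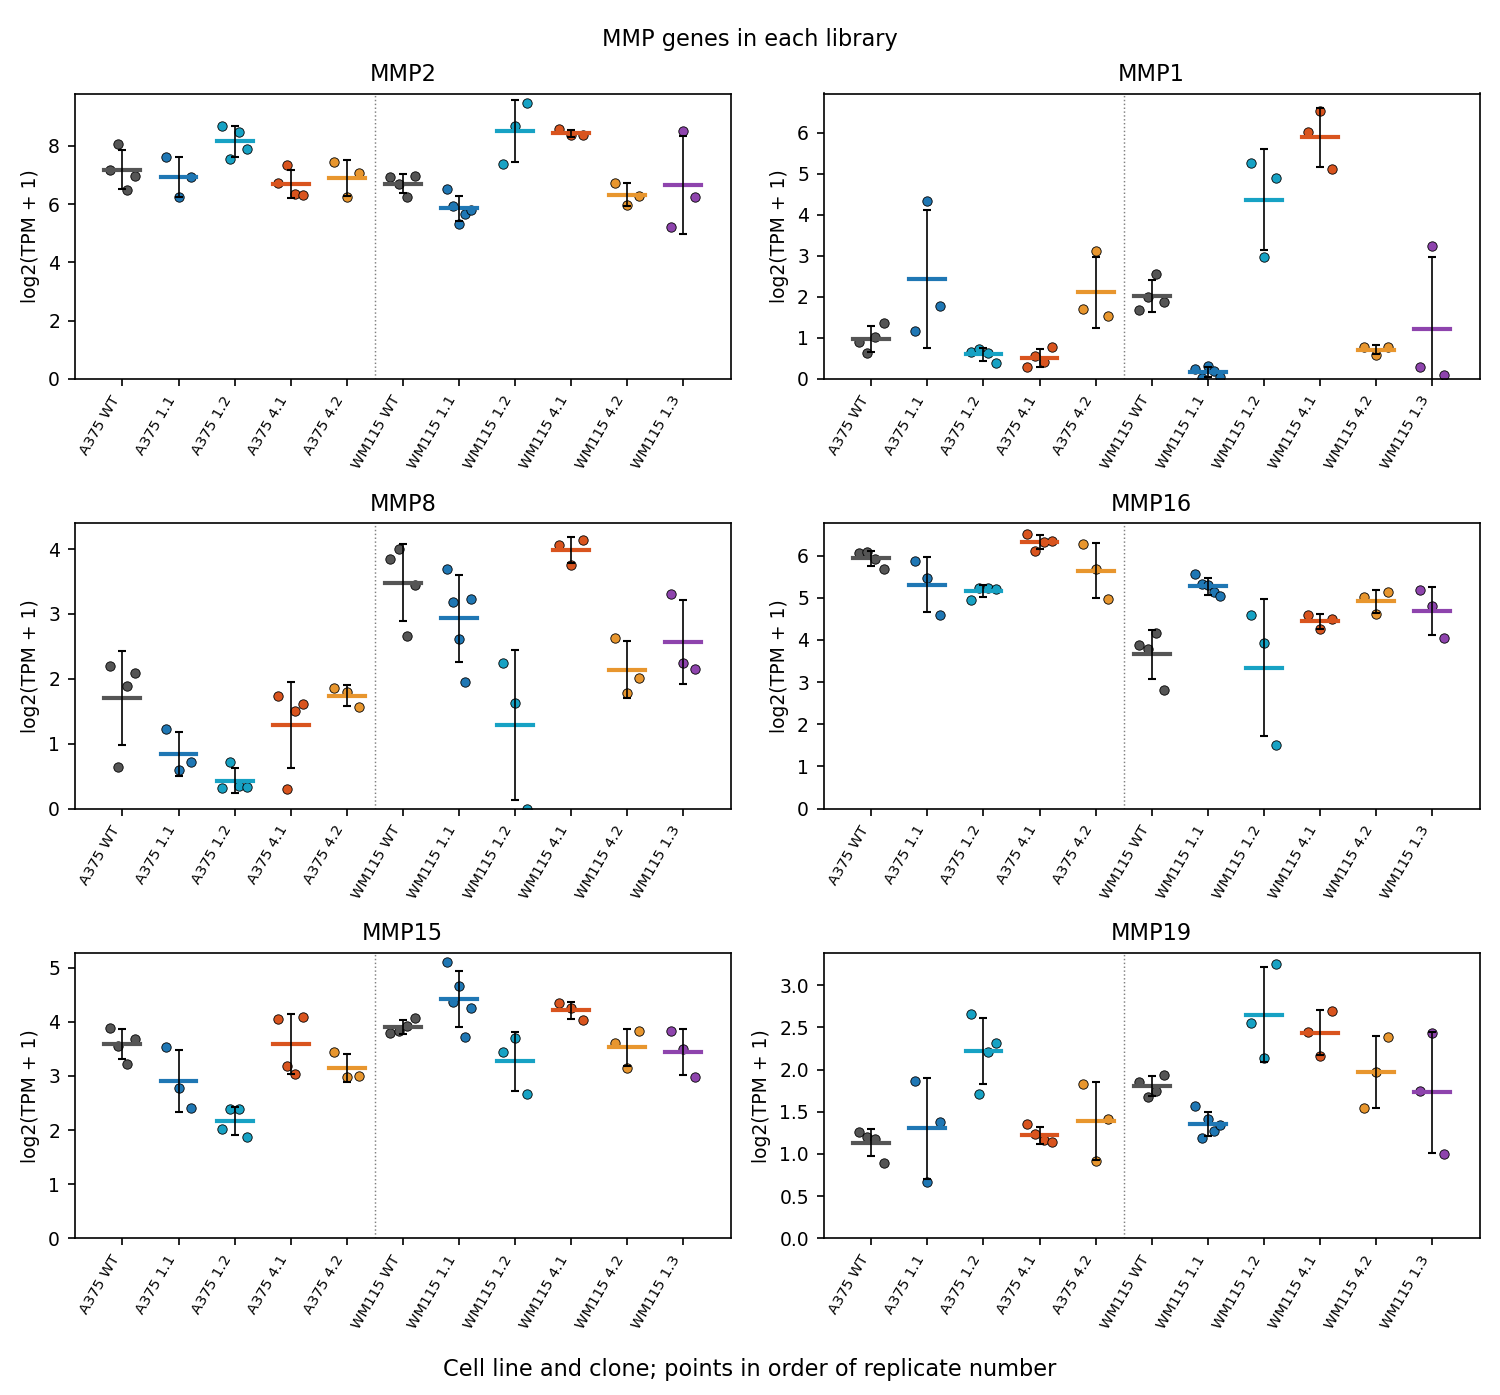
MMP2, MMP1, MMP8, MMP16, MMP15 and MMP19 in every library, as log2(TPM + 1), with the mean as a line and 1 SD as a bar, and points in the order of replicate number. MMP1 in WM115 ranged from 0.022 TPM in clone 1.1 to 91.1 TPM in clone 4.1, and the single high point of clone 1.3 for MMP1 and MMP2 is its library 2.

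Of the membrane-type MMPs tested, MMP14, MMP15, MMP16 and MMP25 were each called in 1 clone, and MMP17 and MMP24, named after their values were seen, in none. Both A375 R1 clones still lay wholly below WT in MMP17, and both R4 clones overlapped WT. The levels were 26.0 to 39.5 TPM in WT, 13.7 to 19.8 TPM in clone 1.1 and 10.4 to 19.6 TPM in clone 1.2. Clone 1.2 fell short of the minimum difference (-0.93, adjusted p = 0.00633) and was called with quantile normalization (-1.02) or without its library 3 (-1.04). MMP14 (chromosome 14, 22836557 to 22849027, plus strand) was at 219, 221, 158.5 and 173 TPM in WM115 WT and at 351, 389.7 and 460.5 TPM in clone 1.2, with no overlap. The log2 difference was 1.06 (SE 0.21, adjusted p = 0.00271), and it fell just under the minimum without library 3 of the clone (0.95) or WT library 3 (0.97). Clone 4.1, at 319, 331 and 276 TPM, was also above all WT libraries (0.69, adjusted p = 0.0238), short of the minimum difference. Clone 1.3, at 229.8 to 391 TPM, lay above them too, without a call, and clones 1.1 and 4.2 overlapped WT.

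MMP16 (chromosome 8, 88032009 to 88328025, minus strand), which can also activate pro-MMP2, was higher in WM115 clone 1.1, at 46.2, 38.9, 38.2, 34.0 and 31.9 TPM against 13.8, 12.9, 16.9 and 6.07 TPM in WT. The groups did not overlap (1.60, SE 0.42, adjusted p = 0.0118), and within the libraries of high mitochondrial share the difference was 1.42 (adjusted p = 0.242). The median log2 difference over the 578 tested genes of chromosome 8 was 0.405 in that clone, above the -0.118 over all genes. The libraries of clones 4.2 (23.5 to 34.0 TPM) and 4.1 (18.0 to 23.1 TPM) also lay wholly above WT, without a call (1.25, SE 0.48, adjusted p = 0.0724, and 0.78, SE 0.48, adjusted p = 0.254), and with median-of-ratios scaling clone 4.2 was called (1.37, adjusted p = 0.0474). In clone 1.2 MMP16 was uneven, at 23.0, 14.2 and 1.86 TPM, the last in the library with the lowest SOX10, and was not called (-0.32, SE 0.48).

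MMP15 was lower in A375 clone 1.2, at 3.04, 4.23, 4.26 and 2.65 TPM against 13.8, 10.7, 8.30 and 11.8 TPM in WT (-1.42, SE 0.27, adjusted p = 0.00300). Every library of the clone was below every WT library, and within the libraries of low mitochondrial share the difference was -1.5 (adjusted p = 0.107). MMP25, a glycolipid-anchored MMP known from neutrophils, was higher in WM115 clone 1.2, at 3.19, 5.14 and 4.85 TPM against 0.792 to 1.44 TPM in WT (1.39, SE 0.26, adjusted p = 0.00199). Library 2 of clone 1.3 had 4.02 TPM, within the range of clone 1.2. MMP19, a secreted MMP that cuts basement membrane proteins, was higher in A375 clone 1.2, at 5.31, 2.26, 3.62 and 3.99 TPM against 0.859 to 1.40 TPM in WT. Its groups did not overlap (1.09, SE 0.25, adjusted p = 0.0111), and without library 1 of the clone the difference was 0.94.

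Among the ADAMTS genes, ADAMTS12 (ENSG00000151388, chromosome 5, 33523535 to 33892192, minus strand) had the clearest difference, and in the same clone number of both lines. A375 WT had 5.53, 5.41, 3.15 and 5.05 TPM and clone 1.2 had 22.7, 22.5, 23.3 and 18.6 TPM. The log2 difference was 1.99 (SE 0.20, adjusted p = 4.79e-06), and none of 18 alternatives ended this call. WM115 WT had 0.358, 0.484, 0.501 and 0.2 TPM and clone 1.2 had 16.0, 6.17 and 16.6 TPM, a log2 difference of 3.22 (SE 0.43, adjusted p = 0.000142), or 3.0 without library 3 of the clone. In both lines all libraries of clone 1.2 were above all of WT.

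The other R1 clone did not share this. A375 clone 1.1 had 2.602, 2.10 and 3.87 TPM, and in WM115 clone 1.1 ADAMTS12 was listed at 0 in all 5 libraries. Clone 1.2 differed from clone 1.1 by 2.58 (SE 0.21, adjusted p = 3.64e-07) in A375 and by 3.69 (SE 0.41, adjusted p = 5.17e-06) in WM115. WM115 clone 4.2, at 1.62, 1.64 and 3.21 TPM, was above all WT libraries without a call (1.16, SE 0.43, adjusted p = 0.0640). Clone 4.1 of that line, at 0.638 to 1.46 TPM, was also above them without a call. Library 2 of clone 1.3 had 6.22 TPM against 0.326 TPM in each of libraries 1 and 3.

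ADAMTS6 (chromosome 5, 65148736 to 65481920, minus strand), a protease of fibrillin microfibrils, was higher in WM115 clone 1.2, at 9.98, 1.83 and 5.199 TPM against 0.147 to 0.546 TPM in WT. There was no overlap (2.11, SE 0.36, adjusted p = 0.000893). In library 2 of clone 1.3 it was at 2.87 TPM, against 0.424 and 0.334 TPM in the other two. In A375 clone 1.2, at 0.967 to 2.16 TPM against 0.221 to 0.817 TPM in WT, ADAMTS6 was not called (0.67, SE 0.21, adjusted p = 0.0548). The median over all 774 tested genes of chromosome 5, which holds both ADAMTS6 and ADAMTS12, was 0.02 in WM115 clone 1.2.

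ADAMTS1 (chromosome 21, 26835747 to 26845409, minus strand), which cleaves aggrecan and versican, was lower in A375 clone 4.2, at 2.35, 2.36 and 1.12 TPM against 5.97, 11.9, 10.2 and 5.79 TPM in WT. The groups did not overlap (-1.66, SE 0.30, adjusted p = 0.0129), and the call was lost without WT library 3 (adjusted p = 0.0549) or library 3 of the clone (adjusted p = 0.113). In WM115 clone 1.2 it was at 13.5, 14.3 and 1.27 TPM against 18.3 to 23.3 TPM in WT (-1.498, SE 0.44, adjusted p = 0.0209), and without library 3 it was -0.59 (adjusted p = 0.119). WM115 clone 1.1, at 33.3 to 47.9 TPM, lay above WT without a call and differed from clone 1.2 by test (-2.30 for clone 1.2 minus clone 1.1, SE 0.42, adjusted p = 0.000449). ADAMTS9, a relative that also cleaves versican, was close to 0 in A375 clone 1.2, at 0.088, 0.088, 0.017 and 0.121 TPM against 1.62 to 2.88 TPM in WT (-1.48, SE 0.22, adjusted p = 0.000322). In A375 clone 1.1 it was at 1.13 to 2.98 TPM.

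**Figure D5:**
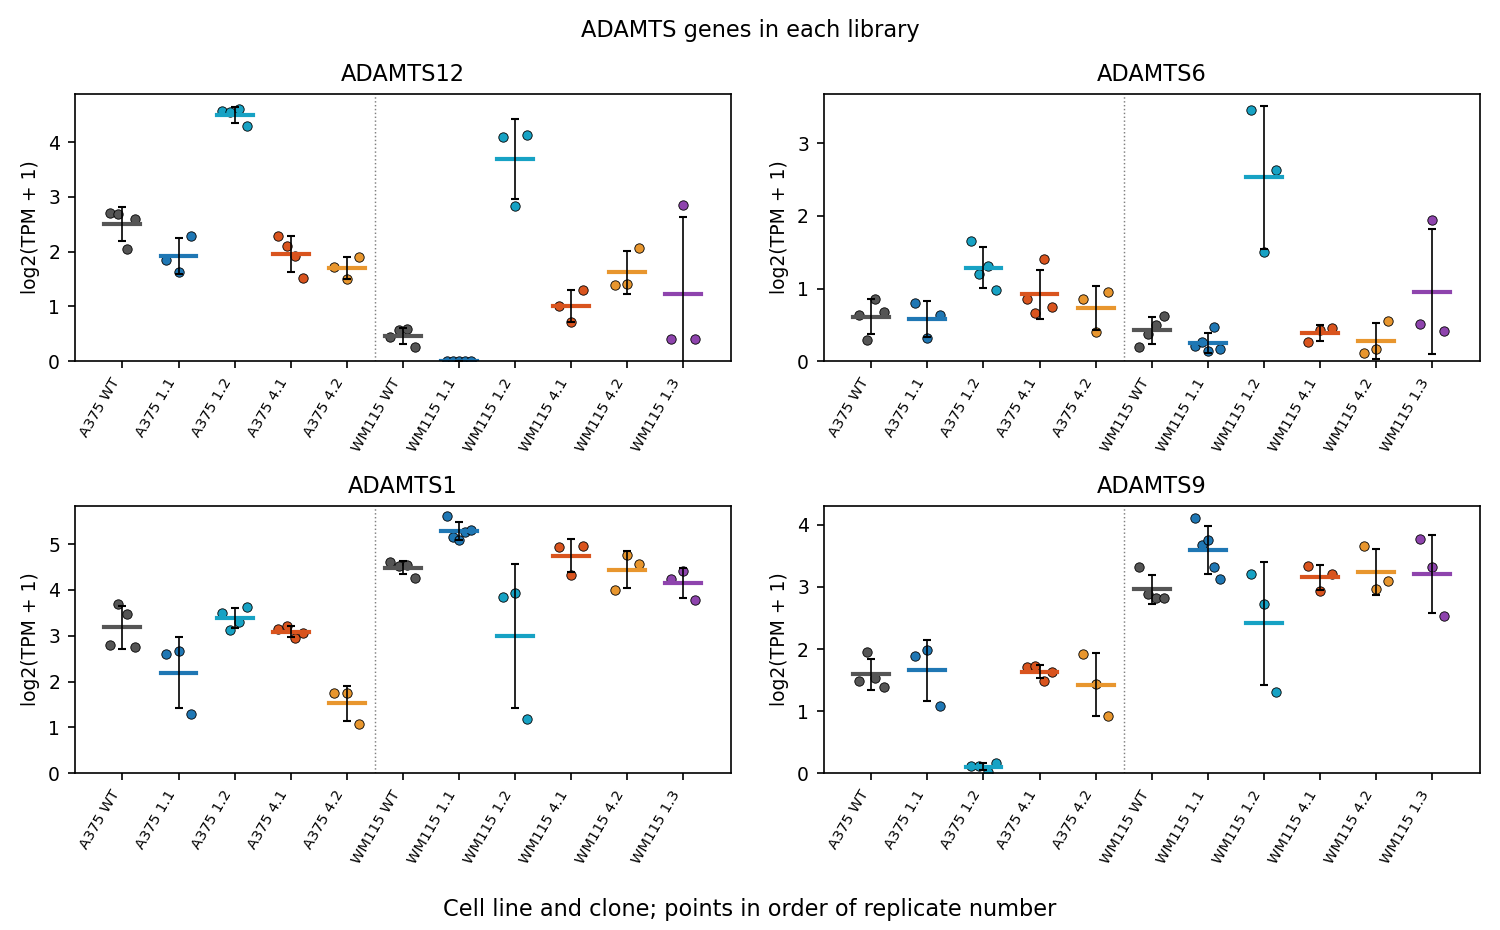
ADAMTS12, ADAMTS6, ADAMTS1 and ADAMTS9 in every library, as log2(TPM + 1), with the mean as a line and 1 SD as a bar. Clone 1.2 of both lines sits above WT for ADAMTS12 (18.6 TPM or more against 5.53 TPM or less in A375, 6.17 TPM or more against 0.501 TPM or less in WM115).

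Marker lists shifted in several clones. The summed level of 7 melanocytic markers was 447.5 to 522 TPM in A375 clone 1.2 against 686.5 to 812 TPM in WT, and 27.3 to 876.5 TPM in WM115 clone 1.2 against 1033 to 2762 TPM in WT. The 6 fibroblast markers summed to 15.9 to 21.7 TPM in A375 clone 1.2 against 6.85 to 14.3 TPM in WT, and in WM115 they overlapped WT (8.50 to 18.3 TPM against 6.12 to 29.6 TPM). The 3 endothelial markers, of which VWF stayed under 0.4 TPM, summed in WM115 to 2.73 to 16.3 TPM in clone 1.2, 3.06 to 4.999 TPM in clone 4.1 and 3.28 to 7.46 TPM in clone 4.2, against 0.229 to 3.18 TPM in WT. The 3 leukocyte markers, nearly all of it CD68, overlapped WT in clone 1.2 of both lines (87.3 to 165 TPM against 20.6 to 119.8 TPM in A375 and 420.2 to 757 TPM against 336 to 445 TPM in WM115). The part of these shifts in the differences of the proteases was not tested.

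The families were also summed per library, as a description chosen after the values were seen. In WM115 the summed MMP level was 415 to 531 TPM in WT, 714 to 1299 TPM in clone 1.2 and 829 to 920.0 TPM in clone 4.1. The summed level of TIMP1, TIMP2 and TIMP3 over that of the MMPs was 4.67 to 6.28 in WM115 WT, 0.845 to 2.29 in clone 1.2 and 5.54 to 9.88 in clone 1.1. MMP2 over TIMP2 was 0.202 to 0.247 in WM115 WT, 2.26 to 2.75 in clone 4.1 and 0.504 to 0.752 in clone 4.2. In A375 the inhibitors over the MMPs were 2.22 to 6.04 in WT and 1.78 to 3.32 in clone 1.2, which overlapped. These are RNA ratios, and neither protein nor activity was measured. In bulk libraries fewer cells that make an RNA and less of it per cell cannot be told apart.

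Whether R1 and R4 deletions differed was asked over clones, with 8 clones and the line as a covariate. Of 22 genes tested in both lines none was called by limma, nor was any of the 15287 genes (0%), and 3 of the 22 had an unadjusted p under 0.05: TIMP2, MMP17 and TIMP1. The lowest adjusted p among the 22 was 0.996. No gene was called in the interaction of region and line either (0% of all genes), where 1 of the 22 had an unadjusted p under 0.05 and the lowest adjusted p was 0.9997.

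Clones of the same region were also compared with each other, over their libraries, a fit of another form and replication than the one over clone means. Between clones 1.2 and 1.1, 5 of 26 genes were called in A375 (2 higher in clone 1.2, 3 lower) against 6.16% of all genes, and 14 of 24 in WM115 (7 higher, 7 lower) against 11.8%. Between clones 4.2 and 4.1, 2 of 26 were called in A375 against 2.23%, and 3 of 24 in WM115, all lower in clone 4.2, against 2.63% called in either direction and 1.82% called lower. Beyond those given above, the WM115 calls between clones 1.2 and 1.1 were ADAMTS6 (2.28), MMP16 (-1.92), MMP8 (-1.64), MMP25 (1.47), MMP19 (1.29), ADAMTS9 (-1.18), MMP15 (-1.15), ADAMTS17 (-1.09) and ADAMTS13 (1.04). Without library 3 of clone 1.2 the WM115 calls of ADAMTS9 (-0.63), ADAMTS13 (0.83), ADAMTS17 (-0.72), MMP8 (-0.997), MMP15 (-0.85) and MMP19 (0.99) were lost. In A375 the calls between clones 1.2 and 1.1 not given above were ADAMTS9 (-1.55), ADAMTS1 (1.199, or 0.75 without library 3 of clone 1.1) and MMP1 (-1.82, or -0.87 without library 2 of clone 1.1). Between A375 clones 4.2 and 4.1 ADAMTS1 was lower in clone 4.2 (-1.57), a call lost without library 3 of that clone (-1.35, adjusted p = 0.0778). These comparisons were added after the data were seen.

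Genes that activate, inhibit, clear or resemble these proteases were read from further lists. Of 14 activation, inhibition and clearance partners, TFPI2, a serine protease inhibitor of the matrix, was higher in 6 clones. Its mean was 21.7 TPM in A375 WT and 137 TPM in clone 1.1 (2.70, SE 0.39), and it was 14.6 TPM in WM115 WT and 85.6 TPM in clone 4.1 (2.57, SE 0.44). SPOCK1, a testican proteoglycan, was higher in WM115 clone 1.2 (3.995, SE 0.66) and clone 1.1 (1.89, SE 0.58). FBLN1, a fibulin that binds ADAMTS1, was higher in the R4 clones of WM115, with a mean of 31.9 TPM in WT, 305 TPM in clone 4.1 and 127 TPM in clone 4.2 (3.28, SE 0.44, and 1.97, SE 0.44). A2M, the plasma inhibitor that traps proteases, was called lower in clone 1.2 of both lines (-2.99, SE 0.78, in A375 and -2.597, SE 0.63, in WM115). This was not particular to clone 1.2. A375 WT ran from 2.10 to 73.4 TPM, and clone 1.1 (0.07 to 1.72 TPM) also lay wholly below it, while clones 4.1 and 4.2 overlapped it. WM115 WT had 234.5 to 392 TPM. Clones 1.1 (88.8 to 154 TPM), 4.1 (205 to 224.5 TPM) and 4.2 (77.4 to 137 TPM) of that line also lay wholly below it, and clone 1.3 overlapped it. Of the partners tested, 1, 2, 0 and 1 of 13 (beside 0.731%, 4.01%, 0.653% and 0.473% of all genes) were called in A375 clones 1.1, 1.2, 4.1 and 4.2, and 3, 3, 3, 2 and 0 of 12 (beside 4.88%, 7.61%, 7.57%, 6.60% and 0.618%) in WM115 clones 1.1, 1.2, 4.1, 4.2 and 1.3.

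Of 18 ADAM and ADAMTS-like relatives, 15 were tested in A375 and 13 in WM115, and between 0 and 4 were called in a clone, with the most in A375 clone 1.2, where 4.01% of all genes were called. THSD4, an ADAMTS-like protein of microfibrils, was higher in A375 clone 4.1 (1.91, SE 0.31) and in WM115 clones 1.2 (2.09, SE 0.40), 4.1 (1.91, SE 0.40) and 4.2 (1.54, SE 0.40), and lower in WM115 clone 1.1 (-1.30, SE 0.35). ADAM19 was higher in both A375 R1 clones (1.97, SE 0.34, and 1.45, SE 0.32), and ADAM12 in both WM115 R1 clones (1.29, SE 0.26, and 1.37, SE 0.30). ADAM23, an ADAM without protease activity, was lower in A375 clone 1.2 and in both R4 clones of WM115 (-1.24, -1.94 and -1.31).

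Of 16 matrix and plasma substrates, 11 were tested in A375 and 12 in WM115, and up to 6 were called in a clone, with the most in WM115 clone 1.2, where 7.61% of all genes were called. Aggrecan (ACAN), the classic ADAMTS substrate, was called lower in both R1 clones of A375 and higher in WM115 clones 1.1, 1.2, 4.1 and 1.3, and the difference between the lines was not tested for it. Its mean was 22.1 ± 22.4 TPM (SD, n = 4) in A375 WT and 3.01 and 1.21 TPM in clones 1.1 and 1.2 (-2.27, SE 0.52, and -2.99, SE 0.48), and 0.52 TPM in WM115 WT and 22.4 TPM in clone 4.1 (3.92, SE 0.51). Of the A375 R4 clones, clone 4.1, at a mean of 32.01 TPM, was not called (0.79, SE 0.48). Clone 4.2, also without a call, had a mean of 2.44 TPM (1.81 to 3.44 TPM), wholly below the lowest WT library (7.80 TPM). Versican (VCAN) was lower in A375 clone 1.2 (-1.41, SE 0.32) and higher in all 4 WM115 clones of known region (1.11 to 2.04). Fibronectin (FN1) was higher in WM115 clones 1.2, 4.1 and 4.2 (1.32, 2.01 and 1.76). Biglycan (BGN) was lower in A375 clones 1.1 and 4.2 (-3.45 and -2.78) and higher in WM115 clone 1.1 (1.37).

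Of 13 AP-1 and ETS factors, which have sites in several MMP promoters, FOSL2 was called in clone 1.2 of both lines, at a mean of 30.4 TPM against 7.66 TPM in A375 WT (1.79, SE 0.27) and 50.2 TPM against 7.48 TPM in WM115 WT (2.57, SE 0.41). Those are also the clones in which ADAMTS12 was called higher and MMP8 and A2M were called lower. Among the tested MMP, ADAMTS and TIMP genes, 6 of 26 were called in A375 clone 1.2 and 9 of 24 in WM115 clone 1.2. Sharing these clones with FOSL2 is therefore not particular to ADAMTS12. FOSL2 was at 16.2 ± 17.2 TPM (SD, n = 3) in WM115 clone 1.3. No other factor of this list was called in 2 clones. Between 0 and 4 of 13 were called in a clone, with the most in WM115 clone 1.2, where 7.61% of all genes were called. Whether any of these factors has a part in the differences of the proteases was not tested.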

How the data were processed

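RNA of 39 libraries was measured by sequencing of poly-A RNA. The deposited values are TPM per gene and per transcript, made by the authors, and per the submitters' processing notes the build GRCh38 and the tool DRAGEN were used, with no version or role given. No read counts or depths were used here, so the precision of a single value is unknown. The gene table has 60871 lines, of which 200 repeat an identifier and were used once, and 6 value columns that match no sample were not used. Transcripts come from the deposited transcript TPM.

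The log2(TPM + 1) values were fitted with limma 3.58.1 in R 4.3.3, with 1 coefficient per group within a line and a trended variance, over genes at 1 TPM or more in at least 3 libraries. P-values were adjusted over all genes tested (Benjamini-Hochberg), and a gene was called at an adjusted p under 0.05 and a log2 difference of at least 1 in size. R1 and R4 were compared over clone means, without clone 1.3. The fit was tested on simulated data.

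The genes, lists and tests were chosen with earlier results of these data known. Named are all genes called in a clone, the 5 of highest mean TPM, the TIMPs, and for the other lists up to 4 genes called in at least 2 clones. The alternatives were another pseudocount, filters, scalings, samples and a replicate block, mitochondrial share as a high or low set, and leaving out libraries. Positions are from GENCODE 29.

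Libraries numbered alike deviated together only between A375 clone 4.1 and WT, where the correlations of all pairs were 0.326 to 0.776. The labels do not say what a number marks. With the replicate block that comparison still held 0 calls among the 26 genes.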

Additional observations from a re-analysis of the deposited data

Results flagged for a closer look

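In groups of 4 or 5 libraries, 8 of 76 combinations of a gene and a group had 1 library far from the others, by the gap to its neighbour as a share of the group's whole range. Chance marks about 1 in 20 groups this way. Of the inhibitors, TIMP1 in A375 WT library 3 was at 1278.9 TPM, against 826.5 TPM in the next library. TIMP2 in library 2 of A375 clone 4.1 was at 54.2 TPM, against 61.3 TPM in the next. TIMP4 in library 1 of A375 clone 1.2 was at 0.076 TPM, with the other libraries of the clone listed at 0.

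In A375 clone 1.2, 3 more genes had such a library. ADAMTS12 was at 18.55 TPM in library 4, against 22.5 TPM or more in the others, MMP16 was at 29.87 TPM in library 1, against 35.84 TPM or more, and MMP8 was at 0.643 TPM in library 2, against 0.267 TPM or less. In WM115, ADAMTS9 was at 8.955 TPM in WT library 1, against 6.398 TPM in the next, and MMP25 was at 2.009 TPM in library 5 of clone 1.1, against 0.963 TPM in the next. The 16 genes named by the rule were also checked for opposite directions in the lines, and the other genes were not. In none of the 16 did all libraries of both clones of a region lie above WT in one line and below it in the other.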

How the results depend on the processing

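Over all alternatives, 908 values of single genes kept their direction and call, 141 kept their direction and lost the call, and 0 changed direction. Against WT, the number of genes called changed by over 1.5 times as follows. With a pseudocount of 0.1 it was 6 in WM115 clone 1.1 and 4 in WM115 clone 4.2. With no minimum difference it was 6 in WM115 clone 1.1 and 7 in clone 4.1. With a mean of at least 5 TPM it was 3 in A375 clone 1.2, where fewer genes were tested. With only the 2 groups compared it was 0 in A375 clone 4.2 and 6 in WM115 clone 4.2. With the replicate block in that fit it was 0 in A375 clone 4.2, 0 in WM115 clone 1.2 and 1 in WM115 clone 4.2, which leaves few residual degrees of freedom. With the mitochondrial share as a term it was 2 in WM115 clone 4.1. Within the libraries of high mitochondrial share it was 0 in WM115 clone 1.1 and 1 in clone 4.2, and within those of low share it was 1 in A375 clone 1.2 and 0 in A375 clone 4.2, each with fewer libraries. Between clones 1.2 and 1.1 of WM115, 11 of 14 calls were lost with the replicate block, 6 within the libraries of high mitochondrial share and 3 with that share as a term. In A375 4 of 5 were lost within low share, and 2 with only the 2 groups compared or with the block. Between clones 4.2 and 4.1, 2 of 2 calls in A375 were lost with the block or within low share, and 2 of 3 in WM115 with no filter or with the mitochondrial term.

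Leaving out each library in turn gave 0 to 1 in A375 clone 1.1, where MMP17 was called without its library 1 (-1.02, adjusted p = 0.0378), and 0 to 1 in A375 clone 4.2, with 0 without WT library 3 or library 3 of the clone. It gave 4 to 7 in A375 clone 1.2, 4 to 11 in WM115 clone 1.2 with 4 without library 3, 2 to 3 in WM115 clone 1.1, 3 to 4 in clone 4.1, and 1 to 3 in clone 4.2 with 1 without WT library 4 or library 1 of the clone. Between the WT cells it gave 10 to 13. A fit leaving out library 3 of WM115 clone 1.2, and one leaving out library 2 of clone 1.3, both added after the data were seen, each gave 4 in WM115 clone 4.2. For changes not given a reason here, the cause was not tested. Depth is unknown, and genes near 1 TPM are limited most by it.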
